A study of Rattus norvegicus with 18 samples.

Results

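The genes described here carry a cell through mitosis: the mitotic cyclins and their kinase Cdk1, other mitotic kinases, the spindle checkpoint, the anaphase machinery, the kinetochore, the spindle motors and the proteins of cytokinesis. They were taken from a list of 36 gene symbols, and 31 of them were represented by a feature with a single symbol on the array, out of 14499 symbols in all. Espl1, Cenpe, Cenpf, Anln and Ncapg had no such feature and were not analysed here. Ccnb2 alone had more than 1 feature, and the feature with the higher mean level stood for it.

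RNA came from rat inner medullary collecting duct cells in primary culture, an epithelium that concentrates urine in the last stretch of the kidney tubule. It was read on 18 arrays in 6 groups of 3. A first group was grown at 300 mosmol/kg (the 300 culture) and another at 600 mosmol/kg (the 600 culture). The 600 challenge took cells from 300 to 600 mosmol/kg for 24 h, and the 900 challenge took cells from 600 to 900 mosmol/kg for 24 h. A further group for each challenge received cyclosporin A, which blocks calcineurin, at 5 µM. No group had cyclosporin A without a challenge. The labels describe no mock change of medium for the untreated cultures, and they do not give the strain, sex or age of the rats. They also do not say whether replicates came from separate cultures or animals, so a p-value here reflects only array-to-array spread, possibly technical. Levels are on a log scale of unstated base. A difference of 1 log unit means 2-fold if the base is 2, or 2.72-fold if the logarithm is natural. A gene is said to have risen or fallen where limma gave an adjusted p under 0.05 over all 28328 features.

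A cell enters mitosis when Cdk1 joins a B-type cyclin, and it leaves when the anaphase-promoting complex, activated by Cdc20, marks those cyclins and securin, the guard of sister-chromatid cohesion, for destruction. The transcripts of this machinery are made late in the cell cycle and are kept low in resting cells by the DREAM complex, which binds a short promoter element called the cell cycle genes homology region (CHR). NF-Y, a factor that binds CCAAT boxes, often sits beside that element, and B-Myb and FoxM1 take part in switching the genes on. In mouse inner medullary collecting duct lines, an abrupt rise of osmolality is known to delay the cell cycle.

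The promoters of the members shared these elements, which played no part in choosing them. RefSeq promoter windows (build GRCr8, 250 bases before to 50 bases after the annotated start) were found for 26 of the 31 members, and Ccna2, Pbk, Ube2c, Aurkb and Tpx2 had no window in the table used. The CHR letters TTTGAA stood on either strand in 19 of the 26 (73.1%), against 18.3% of all 33469 promoters. CCAAT stood on either strand in 18 of the 26 (69.2%), against 37.5% of all promoters. Both motifs were found in 15 members (57.7%, against 7.41% of all promoters), and neither was found in Aurka, Melk, Bub1 and Kif2c (15.4%, against 51.6%). A match is a run of letters and is not shown to be a bound site. The 150 bases directly before the start are printed for 5 members, read 5′ to 3′ on the gene's strand with TTTGAA and CCAAT, or their reverse complements TTCAAA and ATTGG, in capitals. Ccnb2, Cdc20 and Top2a hold both motifs and Kif2c holds neither, and each was among the 10 members that fell most after the 600 challenge. Cdca8 holds both motifs and did not pass the test.
Ccnb2, chr8:79981659-79981808, minus strand: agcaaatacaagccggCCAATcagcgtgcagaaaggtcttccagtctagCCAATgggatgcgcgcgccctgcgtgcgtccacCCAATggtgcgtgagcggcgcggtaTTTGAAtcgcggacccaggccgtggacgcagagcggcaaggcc
Cdc20, chr5:137255800-137255949, minus strand: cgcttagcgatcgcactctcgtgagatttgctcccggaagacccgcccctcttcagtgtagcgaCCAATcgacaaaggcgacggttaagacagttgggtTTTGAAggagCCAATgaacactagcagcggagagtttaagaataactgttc
Top2a, chr10:84473094-84473243, minus strand: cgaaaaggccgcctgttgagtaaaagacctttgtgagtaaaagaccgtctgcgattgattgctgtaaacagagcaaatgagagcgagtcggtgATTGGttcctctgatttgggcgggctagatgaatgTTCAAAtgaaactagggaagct
Kif2c, chr5:135899213-135899362, minus strand: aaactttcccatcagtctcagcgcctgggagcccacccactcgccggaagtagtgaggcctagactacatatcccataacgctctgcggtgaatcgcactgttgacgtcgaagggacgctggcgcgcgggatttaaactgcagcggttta
Cdca8, chr5:142483200-142483349, minus strand: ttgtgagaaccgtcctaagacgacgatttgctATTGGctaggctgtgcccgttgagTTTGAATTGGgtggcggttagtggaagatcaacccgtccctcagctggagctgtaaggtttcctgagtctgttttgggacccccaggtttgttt
The TTTGAA nearest to the start begins 43 bases before the start in Ccnb2 and 51 bases before the start in Cdc20. In Cdca8 the element ends inside the next motif, the only overlap between the motifs among the members. In the printed stretch Top2a carries both on the opposite strand.

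**Figure D1:**
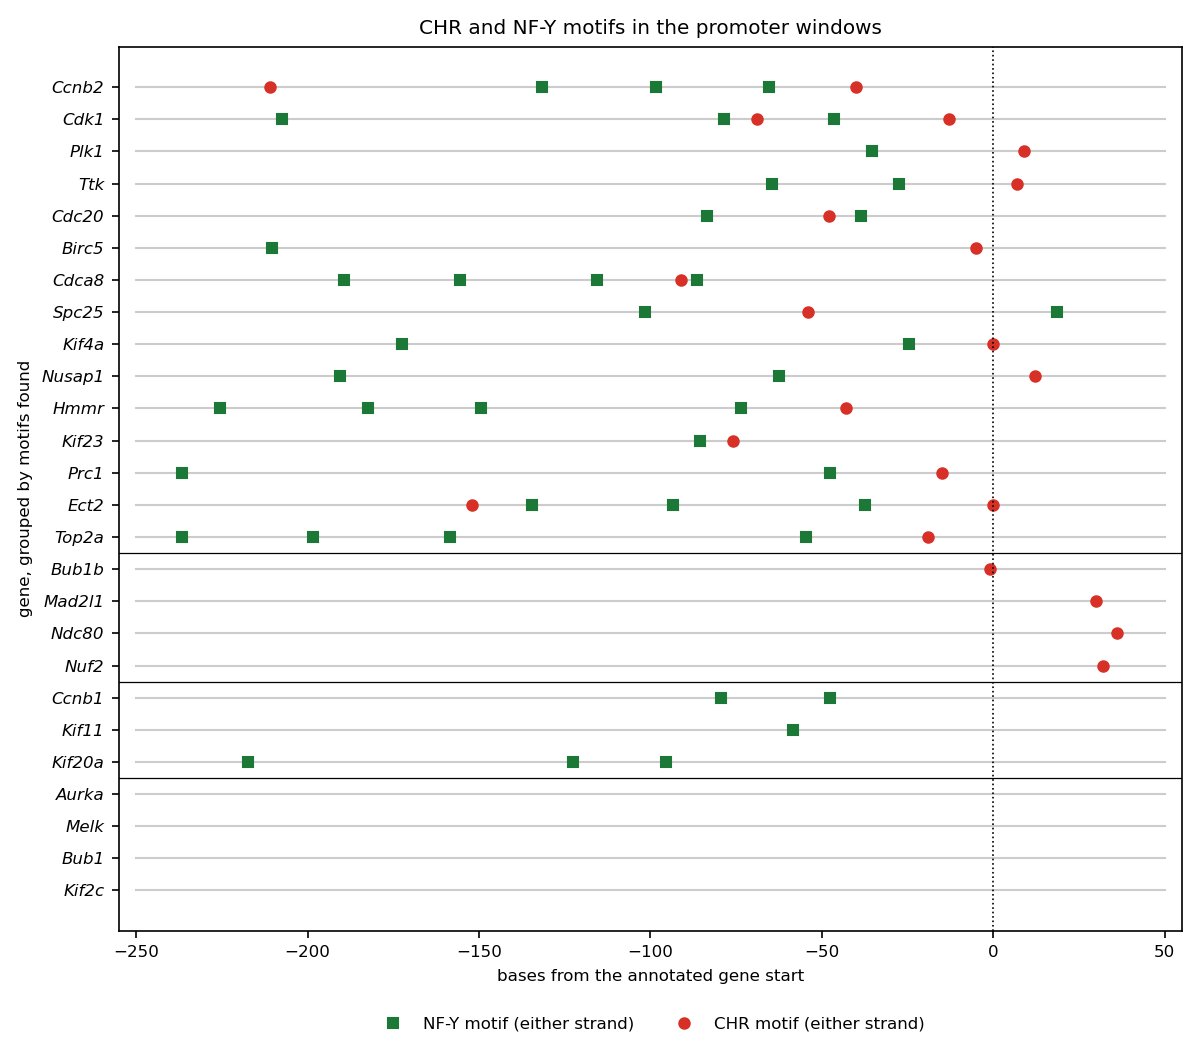
Position of each CHR motif (circles) and NF-Y motif (squares, the CCAAT box) in the promoter windows of 26 members, in bases from the annotated start (dotted line), with genes grouped by the motifs found: both in 15 genes, the CHR motif alone in 4, the NF-Y motif alone in 3 and neither in 4. Most circles lie close to the start on either side of it.

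Levels ran from 0 to 9.504 over all features, with medians of 3.564 to 3.649 per array and lower quartiles of 2.476 to 2.696. Group means under 2.696, where a level is not shown to stand above background, occurred for Ube2c in 5 groups, Birc5 in 4, Kif4a in 3 and Bub1b in 2. The collecting duct label was checked against 14 epithelial markers. Of these, 2 had group means under 2.696 in every group and 4 in some groups only. The adherens junction gene Cdh1 averaged 7.33 in the 300 culture, while the water channel gene Aqp2, which defines principal cells, averaged 1.61 there and 6.50 in the 600 culture. Of the markers of other cell types none was at 0 in any group. Group means under 2.696 occurred in every group for 2 of 14 leukocyte and 1 of 14 fibroblast markers, in some groups for 3 further leukocyte and 1 further fibroblast marker, and for 0 of 9 endothelial markers. Their summed levels and those of the epithelial markers are given beside the results they move with. A pair of arrays from the 900 challenges stood apart for the members. Replicate 3 without the drug was the highest of its group for 23 of 31 members (32.7% of all features), and replicate 3 with cyclosporin A was the lowest of its group for 27 of 31 (31.0% of all features).

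The members were highest at 300 mosmol/kg. The 300 culture had the highest group mean for 27 of the 31 members, the 600 culture for Spc25, Ect2 and Top2a, and the 900 challenge for Mad2l1. The lowest mean was that of the 600 challenge for 20 members, of the 600 challenge with cyclosporin A for 4, of the 900 challenge for 5 and of the 900 challenge with cyclosporin A for 2. The median of the 31 group means was 4.41 in the 300 culture, 4.11 in the 600 culture, 3.60 and 3.64 after the 600 challenge without and with the drug, and 3.74 and 3.82 after the 900 challenge without and with it. Replicates spread more after the 900 challenge (median SD of the members 0.183) than in the 300 culture (0.058). The main fit took a single spread per gene over all groups, so its SEs and p-values do not follow this difference.

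**Figure D2:**
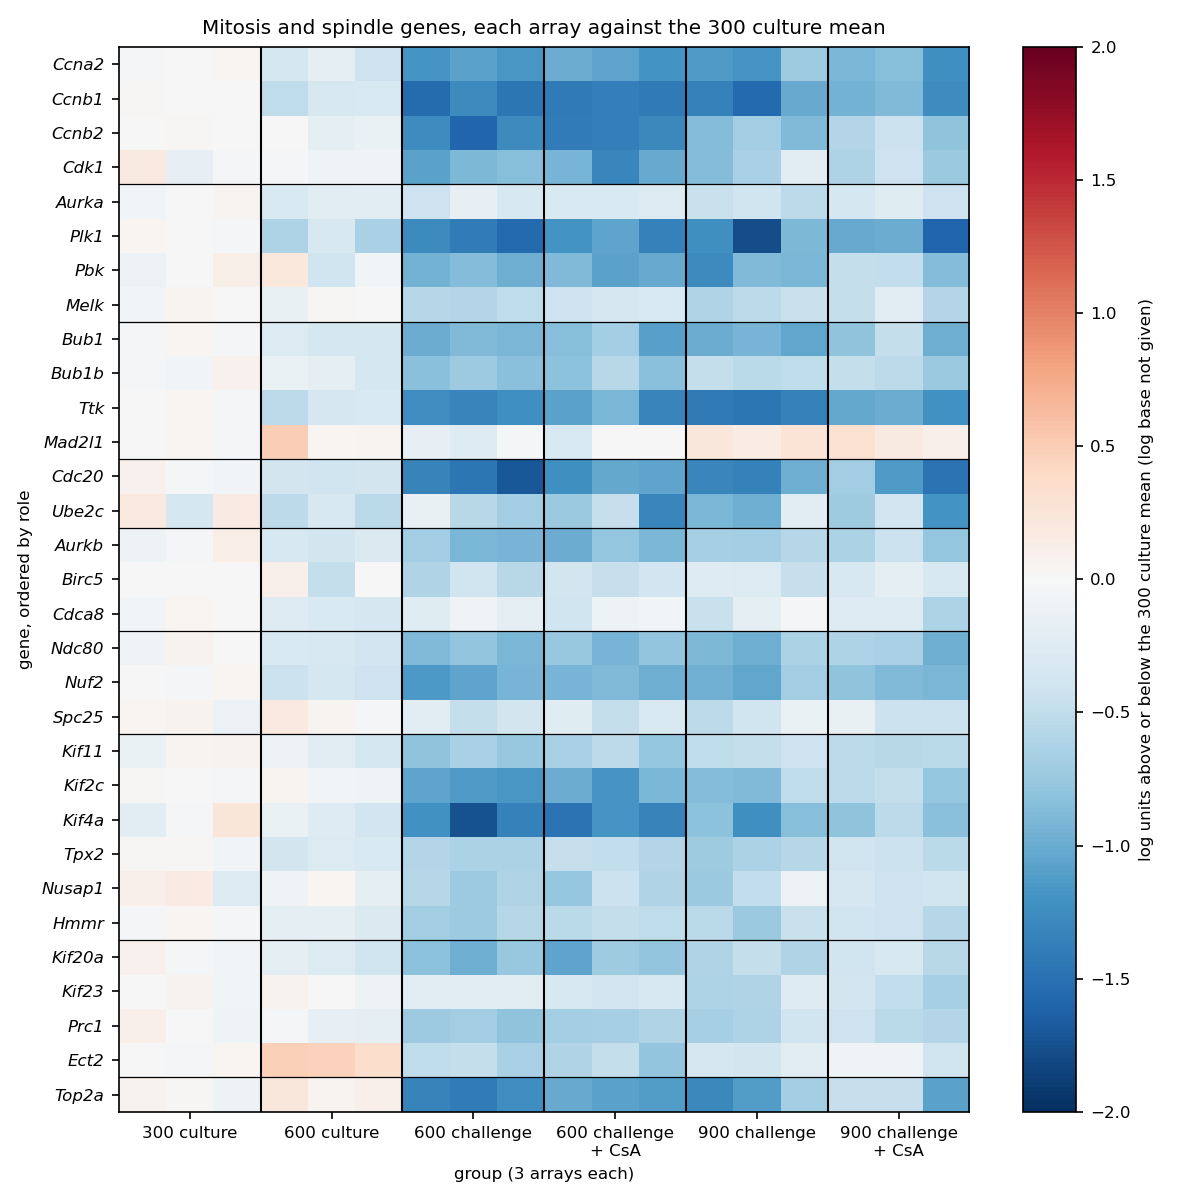
Each row is 1 of the 31 members, grouped by role, and each column 1 of the 18 arrays; colour gives the level minus that gene's mean in the 300 culture, in log units (blue lower, red higher). The 12 columns of the challenges are blue for most rows, Mad2l1 stays pale, and Ect2 is red in the 600 culture.

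The step from 300 to 600 mosmol/kg lowered most of the mitotic genes. After the 600 challenge 27 of the 31 members fell and 0 rose, where 8.07% of all features fell and 6.36% rose. The median difference of the members was -0.85, and the median of all features was 0.017. All 31 differences were negative, and in 30 members the 3 challenged arrays lay below all 3 arrays of the 300 culture (15.6% of all features). In RNA from whole cultures, fewer dividing cells and less of each transcript per dividing cell cannot be told apart.

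The mitotic cyclins and their kinase fell together, 4 of 4 with differences from -0.94 to -1.42. Ccnb1, the B-type cyclin that drives entry into mitosis, read 5.34, 5.32 and 5.31 on the arrays of the 300 culture and 3.79, 4.04 and 3.88 after the challenge. The gap between the groups was several times the spread within either of them, and the difference was -1.42 ± 0.12 (SE, adjusted p = 1.78e-06), a fold of 2.67 with base 2 or 4.13 with a natural logarithm. Ccnb2, its close relative, went from 4.99, 5.02 and 4.98 to 3.74, 3.42 and 3.73, and its second feature gave -1.35 against -1.37 for the first. Ccna2, the cyclin of DNA synthesis and early mitosis, fell by 1.14 ± 0.12 (adjusted p = 1.23e-05). Cdk1 itself read 4.25, 3.90 and 4.05 before the challenge and 3.00, 3.17 and 3.22 after it, and again the groups did not overlap (-0.94 ± 0.15, adjusted p = 0.00047).

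All 4 of the other mitotic kinases fell as well, to very different extents. Plk1, the polo-like kinase that acts from centrosome maturation to cytokinesis, read 5.05, 5.01 and 4.97 in the 300 culture and 3.75, 3.62 and 3.45 after the challenge (-1.41 ± 0.20, adjusted p = 0.000159). Aurka, the Aurora kinase of the spindle poles, stood at 4.40, 4.45 and 4.50 and then at 4.04, 4.29 and 4.12. Its difference of -0.30 ± 0.065 was the smallest of the members that passed, and the groups still did not overlap (adjusted p = 0.00502). Pbk, a kinase most active in mitosis, fell by 0.93 ± 0.15 and Melk, a kinase of dividing cells, by 0.55 ± 0.08.

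In the spindle checkpoint, which holds back anaphase until every chromosome is attached, 3 of 4 members fell. Ttk, the kinase that starts checkpoint signalling, read 4.50, 4.54 and 4.47 and then 3.25, 3.18 and 3.28, a difference of -1.26 ± 0.09 (adjusted p = 3.33e-07). Bub1 fell by 0.93 ± 0.11 and Bub1b by 0.80 ± 0.09, the last to a level of 2.60, within the range of the arrays' lower quartiles. Mad2l1, which makes the inhibitor that binds Cdc20, did not pass: its arrays read 4.68, 4.73 and 4.64 and then 4.52, 4.43 and 4.64, a difference of -0.15 (95% interval -0.40 to 0.091, adjusted p = 0.447).

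Cdc20 showed the largest difference of all members. Its levels were 4.49, 4.39 and 4.35 in the 300 culture and 3.07, 2.96 and 2.71 after the challenge, a difference of -1.50 ± 0.15 (adjusted p = 1.03e-05) and a fold of 2.82 with base 2 or 4.47 with a natural logarithm. Ube2c, the ubiquitin-conjugating enzyme that works with the same complex, spread widely between replicates (3.23, 2.69 and 3.20, then 2.90, 2.48 and 2.34). Those groups overlapped, and the difference of -0.47 did not pass (95% interval -1.03 to 0.097).

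Attachment of chromosomes to the spindle was represented by the chromosomal passenger complex and the outer kinetochore. Of the passenger complex, the kinase gene Aurkb fell by 0.85 ± 0.09 (adjusted p = 1.49e-05) and the survivin gene Birc5 by 0.52 ± 0.12 (adjusted p = 0.00723), while the borealin gene Cdca8 had a difference of -0.17 (95% interval -0.42 to 0.081, adjusted p = 0.406). All 3 measured subunits of the microtubule-binding Ndc80 complex fell. Nuf2 read 4.86, 4.84 and 4.91 and then 3.72, 3.82 and 3.95 (-1.04 ± 0.08, adjusted p = 4.81e-07), and Ndc80 fell by 0.86 ± 0.10. Spc25 passed narrowly at -0.35 ± 0.11 (adjusted p = 0.0497). Its call was lost when any of 5 arrays was left out, namely each array of the 300 culture and replicates 2 and 3 of the 600 challenge, with adjusted p between 0.0538 and 0.175.

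All 6 spindle motors and assembly factors fell. Kif4a, a chromosome-bound kinesin, read 3.45, 3.62 and 3.90 and then 2.44, 1.92 and 2.30 (-1.44 ± 0.15, adjusted p = 1.43e-05), and its level after the challenge lay under the arrays' lower quartiles. Kif2c, a kinesin that takes microtubules apart at centromeres, read 3.96, 3.95 and 3.91 and then 2.88, 2.81 and 2.78, so that its replicates were tight on both sides of a difference of -1.12 ± 0.10. The smaller differences were those of Kif11, the motor that pushes spindle poles apart (-0.74 ± 0.08), the spindle assembly gene Hmmr (-0.66 ± 0.07), the microtubule-bundling gene Nusap1 (-0.64 ± 0.14) and Tpx2, the activator of Aurora A (-0.62 ± 0.055). Of the midzone and cytokinesis genes, Kif20a, a kinesin of the midzone, fell by 0.85 ± 0.09, Prc1, which bundles midzone microtubules, by 0.75 ± 0.08, and Ect2, the exchange factor that switches on RhoA at the cleavage site, by 0.54 ± 0.09. Kif23, the motor subunit of centralspindlin, had a difference of -0.22 (95% interval -0.41 to -0.024), which did not pass after adjustment (adjusted p = 0.137). Top2a, the topoisomerase that untangles chromosomes, read 5.08, 5.03 and 4.91 before and 3.68, 3.61 and 3.76 after the challenge, with a difference of -1.33 ± 0.16 (adjusted p = 3.67e-05).

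**Figure D3:**
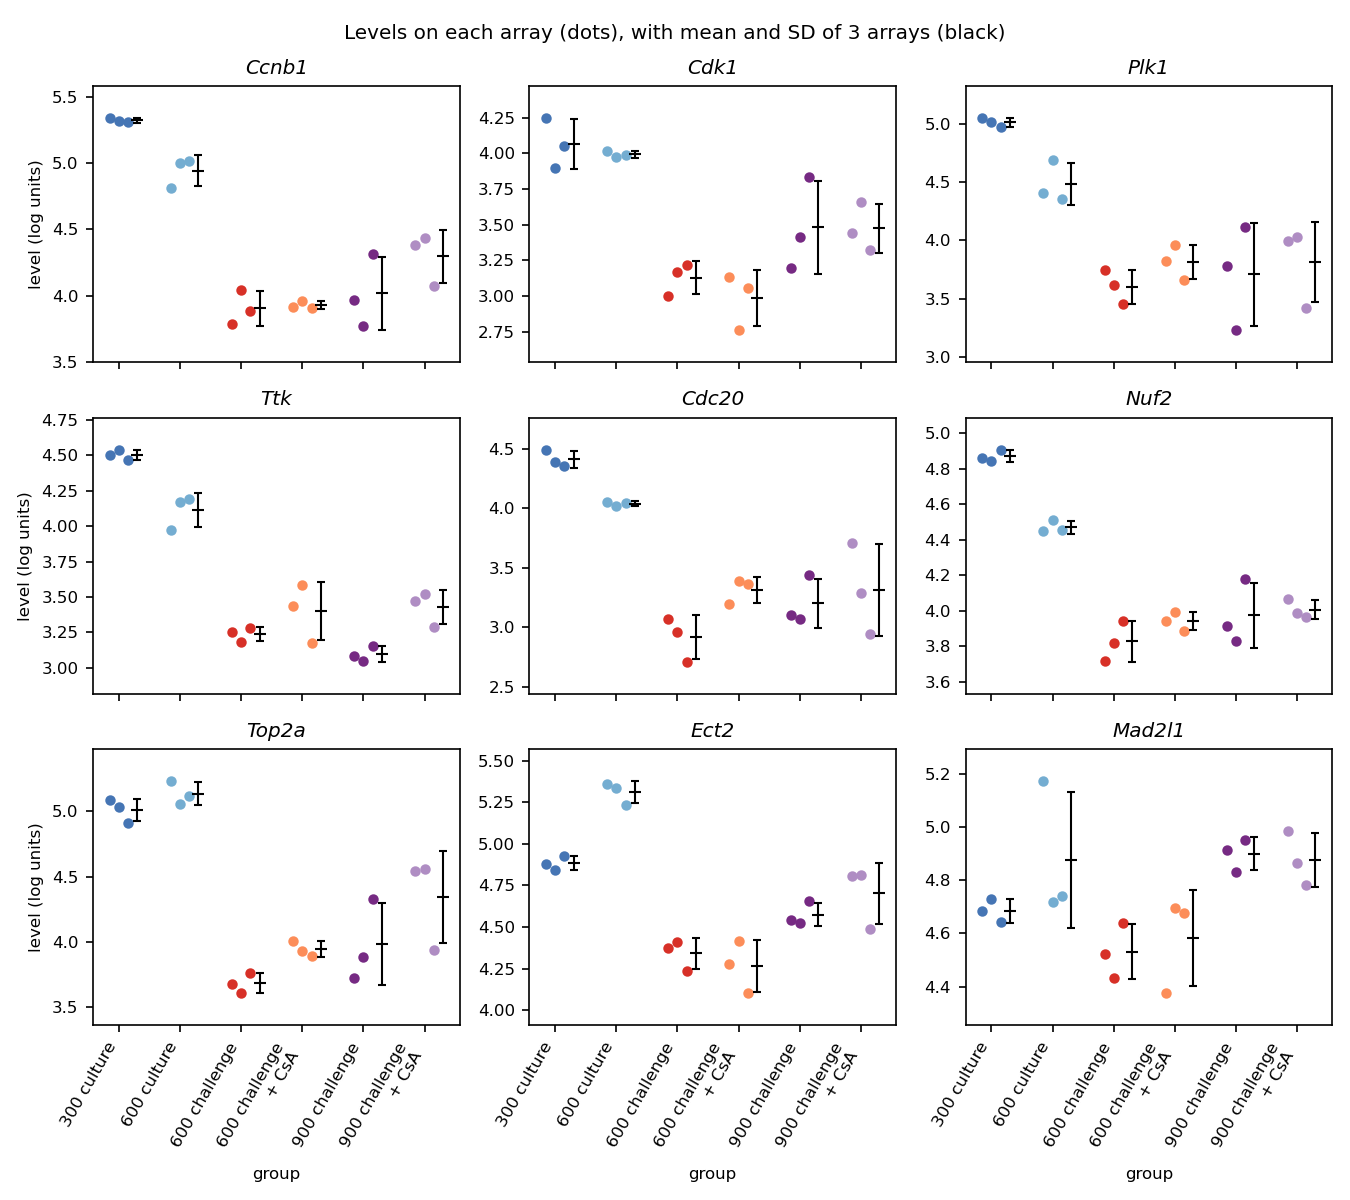
Level in log units of 9 members on each array (dots) with the mean and SD of 3 arrays (black) in the 6 groups. In 8 panels the challenge groups lie below the culture they started from, and in the panel of Mad2l1 the 900 challenge overlaps its culture.

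Members of every motif class fell in this step. With both motifs present, 13 of 15 members fell (median -0.75). With TTTGAA alone 3 of 4 fell (median -0.83), with CCAAT alone 3 of 3 (median -0.85), and with neither 4 of 4 (median -0.74).

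Markers of other cells moved in the same direction over this step. Of 14 leukocyte markers 10 fell and 0 rose, and their summed level was 73.9 to 76.6 in the 300 culture and 58.5 to 60.6 after the challenge. Of 14 fibroblast markers 10 fell and 1 rose (summed level 83.6 to 84.2, then 74.6 to 75.2), and of 9 endothelial markers 6 fell and 1 rose (47.5 to 48.0, then 43.9 to 44.7). Of 14 epithelial markers 3 fell and 3 rose (60.6 to 61.7, then 61.9 to 62.3). The part of these cells in the fall of the mitotic genes was not tested.

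Starting from 600 mosmol/kg, a further step to 900 also lowered the mitotic genes, by less. After the 900 challenge 24 of 31 members fell and 0 rose, where 11.0% of all features fell and 6.43% rose. The median of the members was -0.49 and that of all features -0.013. In 26 members the challenged arrays lay below all arrays of the 600 culture (18.5% of all features). The 7 that did not pass were Mad2l1, Ube2c, Birc5, Cdca8, Kif11, Nusap1 and Kif20a.

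Top2a fell most, from 5.23, 5.06 and 5.12 in the 600 culture to 3.72, 3.88 and 4.33 after the 900 challenge (-1.16 ± 0.16, adjusted p = 0.000111). Replicate 3 stood well above the other challenged arrays and still below the culture. Ttk went from 3.97, 4.17 and 4.20 to 3.08, 3.05 and 3.15, with tight replicates (-1.02 ± 0.09, adjusted p = 2.77e-06). Pbk went from 4.29, 3.68 and 4.02 to 2.81, 3.20 and 3.16, and its difference of -0.94 ± 0.15 was the same size as in the lower step (-0.93). Ccnb1 read 4.81, 5.00 and 5.02 and then 3.97, 3.77 and 4.32, again highest on replicate 3 (-0.93 ± 0.12, adjusted p = 8.55e-05). Further falls were those of Cdc20 (-0.83 ± 0.15), Plk1 (-0.78 ± 0.20), Ect2 (-0.74 ± 0.09), Kif2c (-0.73 ± 0.10), Ccnb2 (-0.71 ± 0.10) and Kif4a (-0.70 ± 0.15). Kif23, which had not passed in the lower step, went from 5.32, 5.25 and 5.15 to 4.63, 4.64 and 4.98 and fell by 0.49 ± 0.09 (adjusted p = 0.00146).

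Mad2l1 was level with its culture, at 4.92, 4.83 and 4.95 against 5.17, 4.72 and 4.74 (difference 0.022, 95% interval -0.22 to 0.27). Cdca8 had a difference of 0.083 and Birc5 of -0.21, with overlapping groups in both. Some calls were lost when a single array was left out, with differences between -0.18 and -0.67 and adjusted p between 0.0507 and 0.136. Cdk1 read 4.02, 3.97 and 3.99 and then 3.20, 3.41 and 3.83. Its call and that of Aurkb were lost without any array of the culture or without replicate 1 or 2 of the challenge. Bub1b was lost without any array of the challenge or replicate 1 or 2 of the culture, and Aurka without replicate 2 or 3 of the culture or 1 or 3 of the challenge. Spc25 was lost without replicate 1 of the culture or replicate 1 or 2 of the challenge, and Plk1 without replicate 2 of either group. Without replicate 3 of the 900 challenge, the array that stood apart, 23 members were called. Over all single arrays left out the count was 19 to 23, with 19 lacking replicate 1 of the 900 challenge. The other alternatives run gave 17 to 26 members.

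Over this step leukocyte markers fell in 11 of 14 cases (summed level 60.6 to 62.6, then 46.8 to 47.3) and fibroblast markers in 11 of 14 with 1 rise (80.5 to 80.9, then 72.8 to 74.2). Of 9 endothelial markers 4 fell and 1 rose (49.1 to 50.6, then 47.3 to 48.5). Epithelial markers rose in 7 of 14 cases and fell in 3 (81.2 to 84.0, then 85.6 to 86.6). Their part in the result was not tested.

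**Figure D4:**
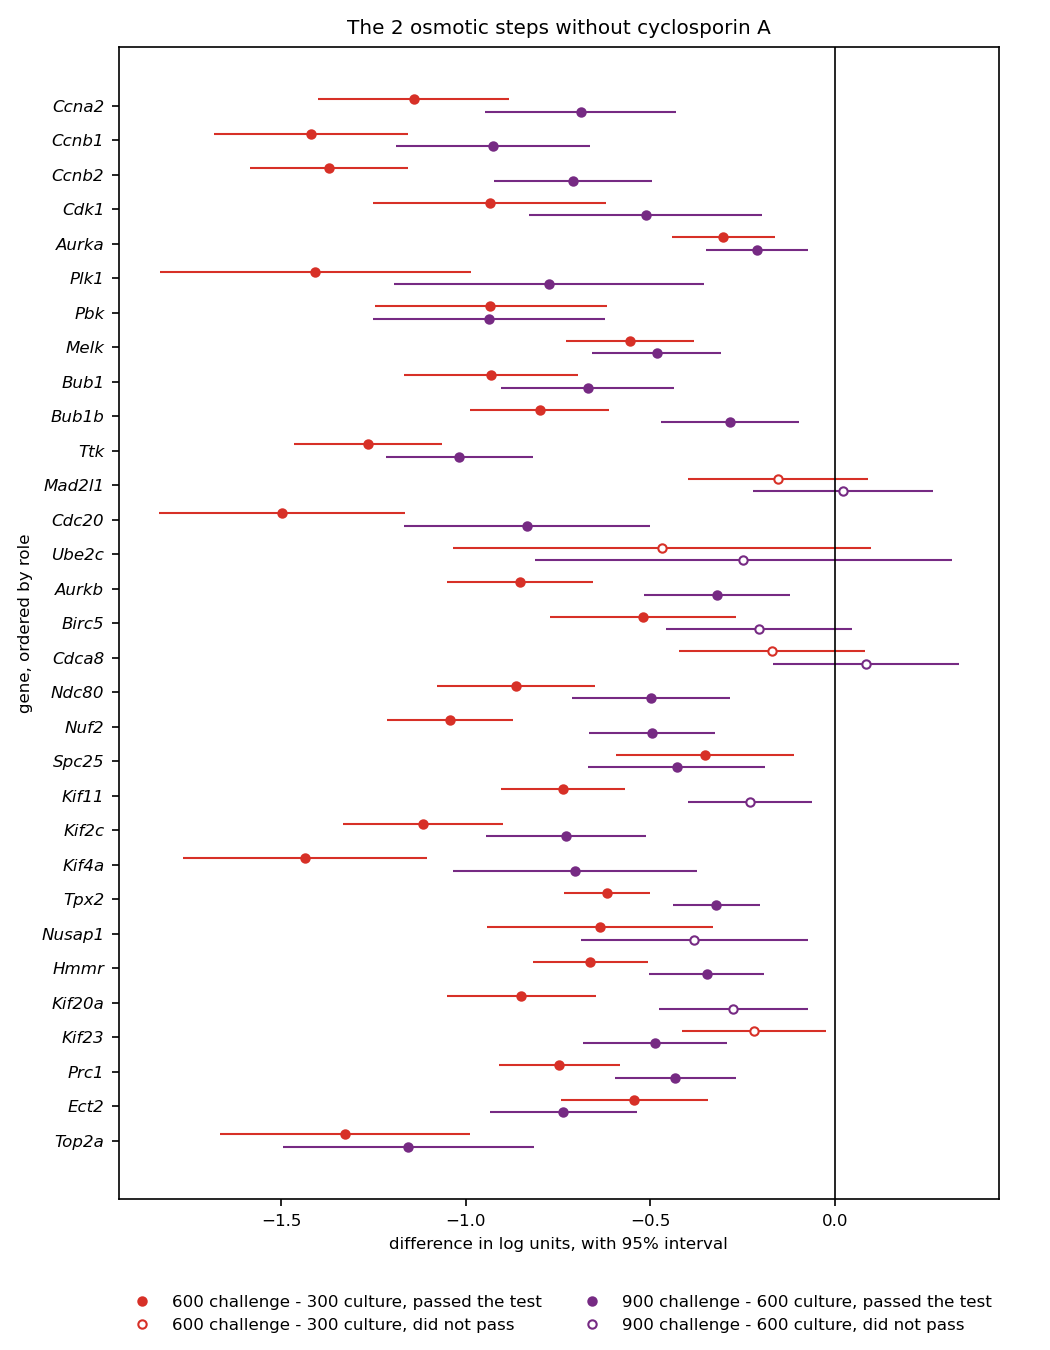
Difference of each member in the step from 300 to 600 mosmol/kg (red) and from 600 to 900 mosmol/kg (purple), in log units with the 95% interval of the fit; filled points passed the test at an adjusted p under 0.05 and open points did not. Red points lie left of purple points for 27 of the 31 members.

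The sizes of these steps were set against each other by a test of the difference, in which no array is shared. The step to 900 was smaller for 7 members and larger for 0, where 3.52% of all features had a higher and 4.06% a lower difference in the upper step. The median of the members was 0.31, and 27 of 31 values were positive. Ccnb2 differed by 0.66 ± 0.14 (adjusted p = 0.0102), having ended at 3.63 ± 0.18 (SD, n = 3) after the 600 challenge and at 4.18 ± 0.11 after the 900 challenge from starts of 5.00 and 4.89. Its second feature gave 0.65 (adjusted p = 0.0134). Nuf2 differed by 0.55 ± 0.11 (adjusted p = 0.00797), from starts of 4.87 and 4.47 and ends of 3.83 and 3.97. Nuf2 differed more between the starting cultures than between the challenged cells, and Ccnb2 the other way round. The others were Kif20a (0.58), Aurkb (0.53), Bub1b (0.52), Kif11 (0.51) and Tpx2 (0.30). Leaving out single arrays ended the calls of Tpx2 (any of 8 arrays), Aurkb (any of 5) and Bub1b (replicate 3 of the 300 or of the 600 culture), with adjusted p between 0.0539 and 0.0765. Without replicate 3 of the 900 challenge 6 members were called, 5 smaller and 1 larger in the upper step, the last being Kif23 (-0.38, adjusted p = 0.0457).

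Growth at 600 mosmol/kg, as opposed to a move to it, was accompanied by smaller differences. In the 600 culture 8 of 31 members were lower than in the 300 culture and 1 was higher, where 8.84% of all features were lower and 8.33% higher. The median of the members was -0.23 and 22 did not pass. Nuf2 read 4.86, 4.84 and 4.91 in the 300 culture and 4.45, 4.51 and 4.45 in the 600 culture (-0.40 ± 0.08, adjusted p = 0.00222). Tpx2 was lower by 0.32 ± 0.055 (adjusted p = 0.000705) and Ttk by 0.39 ± 0.09 (adjusted p = 0.00843). The remaining lower members were Ccnb1, Aurka, Aurkb, Ndc80 and Hmmr, with differences between -0.23 and -0.38. Ect2 went the other way, from 4.88, 4.85 and 4.93 to 5.36, 5.34 and 5.24, without overlap (0.43 ± 0.09, adjusted p = 0.00435). The calls of Ccnb1 and Hmmr were lost without any single array of either culture, and those of Ndc80, Aurkb and Aurka without some of them. The count of 9 fell to 4 without replicate 3 of the 300 culture, to 5 without its replicate 2 and to 5 without replicate 2 of the 600 culture. Leukocyte markers were lower in 11 of 14 cases here, with summed levels of 73.9 to 76.6 and 60.6 to 62.6. Of 14 fibroblast markers 8 were lower and 1 higher (83.6 to 84.2 and 80.5 to 80.9), of 9 endothelial markers 3 were lower and 4 higher (47.5 to 48.0 and 49.1 to 50.6), and of 14 epithelial markers 2 were lower and 9 higher (60.6 to 61.7 and 81.2 to 84.0). Their part was not tested.

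At the same final osmolality, 24 h after the move the members lay below the level of cells grown there. Against the 600 culture, 26 of 31 members were lower after the 600 challenge and 0 were higher by the test, where 8.74% of all features were lower and 7.69% higher (median of the members -0.58). Top2a stood at 5.23, 5.06 and 5.12 in the 600 culture and at 3.68, 3.61 and 3.76 after the challenge, a difference of -1.45 ± 0.16 (adjusted p = 9.83e-06). Ccnb2 differed by -1.26 ± 0.10, Kif4a by -1.17 ± 0.15, Cdc20 by -1.12 ± 0.15, Kif2c by -1.09 ± 0.10 and Ect2 by -0.97 ± 0.09. The calls of Birc5 (-0.40), Nusap1 (-0.56) and Spc25 (-0.43) were lost when some single arrays were left out (adjusted p between 0.0536 and 0.148). Aurka (-0.055), Ube2c (-0.008), Cdca8 (0.13), Mad2l1 (-0.35, adjusted p = 0.0534) and Kif23 (-0.21) did not pass. In this comparison leukocyte markers were lower in 4 of 14 cases and higher in 2, with summed levels of 60.6 to 62.6 against 58.5 to 60.6. Fibroblast markers were lower in 9 of 14 cases and higher in 1 (80.5 to 80.9 against 74.6 to 75.2), endothelial markers lower in 7 of 9 and higher in 0 (49.1 to 50.6 against 43.9 to 44.7), and epithelial markers lower in 10 of 14 (81.2 to 84.0 against 61.9 to 62.3). Their part was not tested.

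Cyclosporin A did not change any member detectably at either challenge, although most members had a higher mean with the drug at both. At the 600 challenge 0 of 31 members were called by limma, where 0.409% of all features were called. An unadjusted p under 0.05 was found for 3 members, and the share of all features at that threshold is not given here. The median difference was 0.059, and the members ranged from -0.37 (Ube2c) to 0.40 (Cdc20). That median was 0.027 without replicate 2 and 0.039 without replicate 3 of the treated group. Cdc20 read 3.07, 2.96 and 2.71 without the drug and 3.19, 3.39 and 3.36 with it. These arrays did not overlap, yet the difference of 0.40 had a 95% interval of 0.066 to 0.73 and an adjusted p of 0.462. In 6 members the arrays with the drug lay above all arrays without it, and in 1 below (6.9% and 6.29% of all features).

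At the 900 challenge 0 of 31 were called, where 0.505% of all features were called. For 6 members the unadjusted p was under 0.05, and the share of all features at that threshold is not given here. The median was 0.097, with a range of -0.16 (Cdca8) to 0.41 (Pbk). Leaving out any single array of these groups moved that median by over 1.5 times: it was 0.171 without replicate 3 of the treated group, 0.17 without replicate 3 of the untreated challenge, and between 0.04 and 0.06 without any of the other arrays. Ttk, with the lowest adjusted p of the members (0.168), read 3.08, 3.05 and 3.15 without and 3.47, 3.52 and 3.29 with the drug, a difference of 0.33 (95% interval 0.13 to 0.53). Top2a read 3.72, 3.88 and 4.33 without the drug and 4.54, 4.55 and 3.93 with it, so that replicate 3 was the highest array without the drug and the lowest with it. Arrays with the drug lay above all arrays without it in 3 members and below in 1 (8.3% and 7.47% of all features). The drug effect at 900 minus that at 600 was called for 0 of 31 members and 0.0459% of all features. Here 1 member, Pbk, had an unadjusted p under 0.05 (0.47, adjusted p = 0.637), again without a share over all features. The median width of the 95% intervals to each side was 0.22 at both challenges, before any adjustment for the number of features. Differences larger than that also missed the adjusted threshold, such as those of Ttk (0.33) and Pbk (0.41) at the 900 challenge. A missed threshold does not show that levels were alike.

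**Figure D5:**
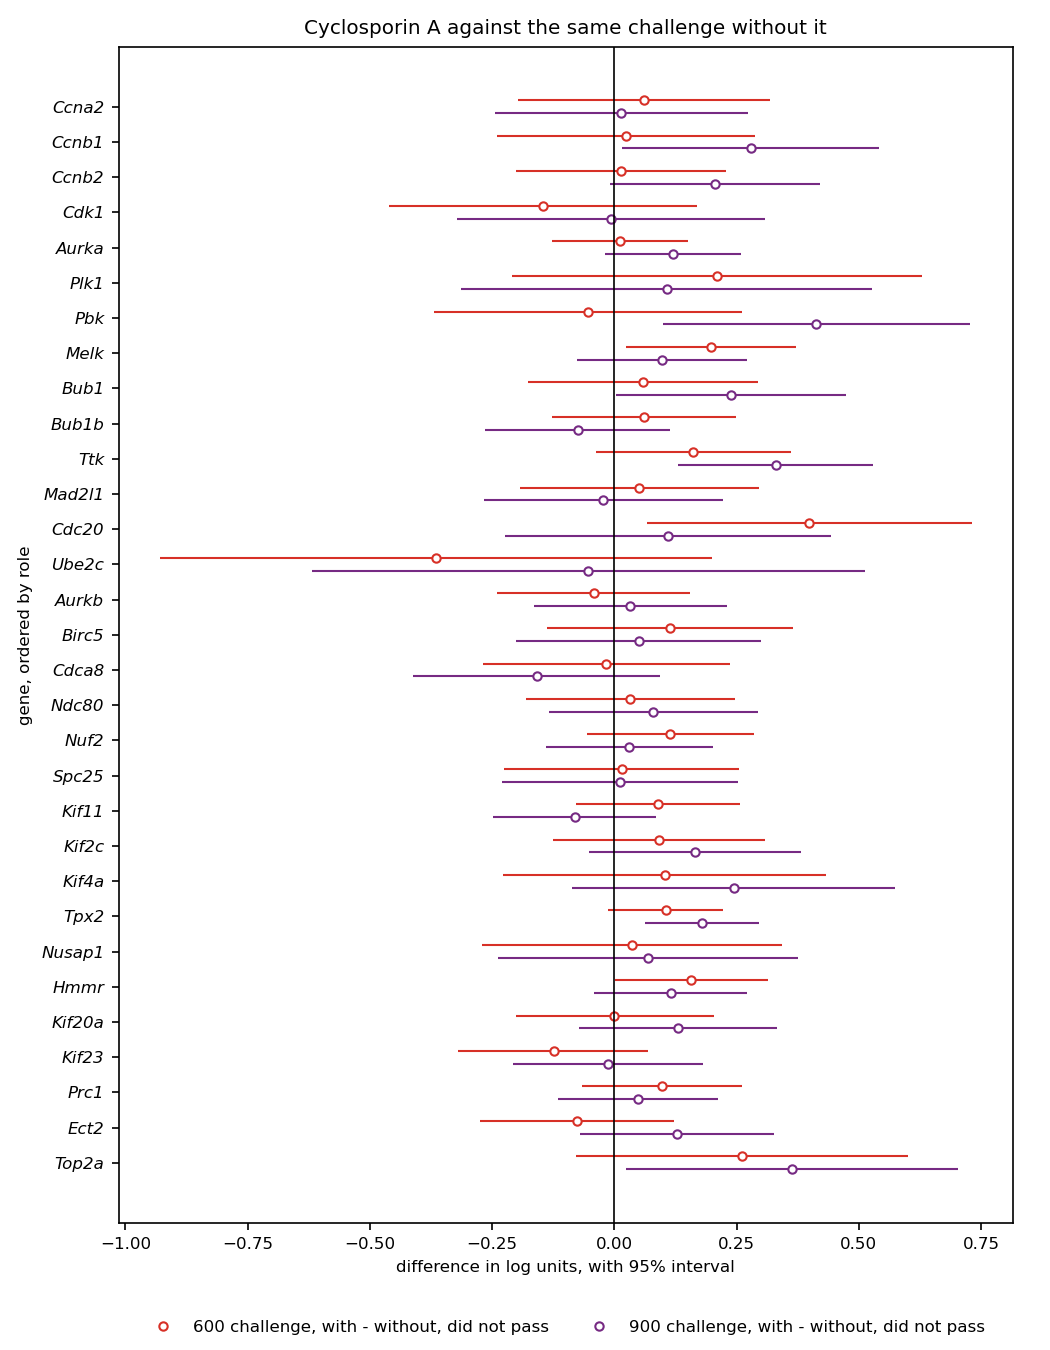
Difference of each member between a challenge with 5 µM cyclosporin A and the same challenge without it, at 600 (red) and 900 mosmol/kg (purple), in log units with the 95% interval of the fit. All points are open because 0 of 31 members passed the test at either challenge, and most lie within 0.25 of 0.

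With the drug the fall against the starting culture was again seen. In the 600 challenge with cyclosporin A 28 of 31 members were lower than in the 300 culture and 0 higher (7.85% and 6.21% of all features), with a median of -0.83. In the 900 challenge with cyclosporin A 22 were lower than in the 600 culture and 0 higher (10.5% and 7.27% of all features), with a median of -0.42. Over all features 2980 were lower and 2060 higher here, a split that became 2189 and 2521 with arrays centred on their medians, when 20 members were lower. At 600 the calls of Birc5, Kif23, Nusap1 and Ube2c rested on single arrays, being lost without some of them. Those comparisons share the culture arrays with the comparisons without the drug. Side by side, Ccnb1 differed by -1.42 without and -1.40 with the drug at 600, and by -0.93 and -0.65 at 900. Cdc20 gave -1.50 and -1.10 at 600, and -0.83 and -0.72 at 900. Top2a gave -1.33 and -1.07, then -1.16 and -0.79. The count of 22 fell to 14 without replicate 3 of the 900 challenge with cyclosporin A, the array on which 27 members were lowest.

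Other genes of cell division were counted from lists of the same pathway. Of 42 further mitosis genes, 24 fell and 0 rose after the 600 challenge (8.07% and 6.36% of all features). After the 900 challenge 22 fell and 0 rose (11.0% and 6.43% of all features). The medians of these genes were -0.43 and -0.30. The largest differences in the first step were those of Dlgap5, a spindle microtubule factor (-1.03), the kinetochore gene Cenpt (-0.99), Pimreg (-0.99) and the abscission gene Cep55 (-0.96). Among 23 genes of DNA replication 10 fell after the 600 challenge and 11 after the 900 challenge, and 0 rose. Rrm2, the regulated subunit of ribonucleotide reductase, read 5.92, 5.88 and 5.99 in the 300 culture and 4.60, 4.37 and 4.41 after the 600 challenge (-1.47). The licensing genes Cdc6 and Mcm5 had differences of -1.01 each and Cdt1 of -0.71. In the 600 culture 6 replication genes were higher than in the 300 culture and 0 lower (8.33% and 8.84% of all features). That was the opposite direction to the mitosis members that passed, Ect2 excepted.

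Of 16 measured regulators of mitotic transcription, 4 fell and 2 rose after the 600 challenge (8.07% and 6.36% of all features). Mybl2, which encodes B-Myb, read 4.94, 4.72 and 4.67 in the 300 culture and 2.99, 3.45 and 3.02 after the challenge, a larger difference (-1.62 ± 0.20) than any member showed. The repressor gene E2f7 fell by 1.01, E2f1 by 0.74 and Foxm1 by 0.66, while Rbl2, which encodes the p130 subunit of DREAM, rose by 0.21 and the E2F partner gene Tfdp2 by 0.36. After the 900 challenge Mybl2 (-1.10), E2f7 (-0.79), E2f3 (-0.32), Rb1 (-0.27) and Rbbp4 (-0.20) fell and Rbl2 rose (0.35). Here E2f1 (-0.37), Foxm1 (-0.39) and Tfdp2 (0.23) did not pass. The calls of Rbl2 and Tfdp2 at the 600 challenge were lost when some single arrays were left out.

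The cyclins and kinases of G1, which act before DNA synthesis, fell in 4 of 8 cases after each challenge. Of all features 8.07% fell after the 600 challenge and 11.0% after the 900 challenge. Ccnd2 read 5.66, 5.81 and 5.83 in the 300 culture, 4.65, 4.63 and 4.55 after the 600 challenge and 5.07, 5.13 and 5.09 after it with cyclosporin A. It fell by 1.16 ± 0.09, and the drug effect of 0.49 ± 0.09 passed the test (limma, adjusted p = 0.033), the only such call in the cell division lists. That call was lost when only the groups compared were fitted, where 0 of all features were called. Ccnd1 fell by 0.56 and 0.33 in the lower and the upper step and Ccne2 by 0.33 and 0.40. Ccnd3 fell in the lower step only by the test (-0.33, then 0.066), and Cdk2 in the upper step (-0.11, then -0.26).

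Among 15 inhibitors and quiescence genes 4 fell and 3 rose after the 600 challenge (8.07% and 6.36% of all features). After the 900 challenge 6 fell and 3 rose (11.0% and 6.43% of all features). Cdkn1b, which encodes the kinase inhibitor p27, rose by 0.18 and 0.40, and Cdkn1c, which encodes p57, by 0.25 in both steps. In Cdkn1c the larger difference was between the cultures, from 4.33, 4.17 and 4.17 at 300 to 5.67, 5.80 and 5.80 at 600 mosmol/kg (1.53 ± 0.07). The p16 locus gene Cdkn2a fell by 0.67 and 0.81, Cdkn2c by 0.63 and 0.56 and Gadd45g by 0.33 and 0.55. Gadd45a, a stress-induced inhibitor, fell by 0.14 in the lower step and rose by 0.22 in the upper step. Ccng2 rose in the lower step (0.18), and Cdkn1a, which encodes p21 (-0.23), Cdkn2b (-0.40) and Wee1 (-0.34) fell in the upper step. Leaving out some single arrays ended the calls of Cdkn1b, Cdkn1c, Ccng2 and Gadd45a in the lower step and of Cdkn1c and Wee1 in the upper step.

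Outside the members, the profile most like theirs over the 18 arrays was sought among 14468 genes, by the root mean square difference from the median of the 31 members after each gene's mean was subtracted. The closest was Mastl, the Greatwall kinase of mitotic entry (0.1071 log units), then Kif1a (0.1202), Rrm1, the large subunit of ribonucleotide reductase (0.1215), and Cep55 (0.1219). Vldlr (0.1232), Bnip3 (0.1232), Glrx (0.1233), Olfml3 (0.1233), Kntc1, a kinetochore gene (0.1254), and Hmgn2 (0.1378) completed the 10. Mastl differed by -0.68 after the 600 challenge and by -0.49 after the 900 challenge, and Glrx, a glutaredoxin gene, by -0.79 and -0.70. Falls like those of the members follow from the way these genes were chosen, on the same 18 arrays.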

How the data were processed

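The authors deposited 1 log-scale value for each feature and array, per the file headers, and neither the summary method, the normalization nor the base of the logarithm is given in the sources used here. Per the labels' protocols, RNA was isolated on Qiagen columns and biotin-labelled with Affymetrix whole-transcript kits. Groups follow the labels. Values were used as deposited, without filter or pseudocount, because the base of a logarithm scales every difference alike and alters no p-value. The test had been planned for log values. Symbols were read from the array's probe table, where 15295 features have a single symbol, 322 several and 12711 none. The members and lists were chosen with earlier results of these data known.

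Groups were compared with limma 3.58.1 in R 4.3.3, with 6 group means on all 18 arrays and 10 contrasts. Variances were moderated (12 residual and 2.03 prior degrees of freedom), and p-values were adjusted by Benjamini-Hochberg over 28328 features. The script was tested on simulated data. Other scalings, a filter, other variance models and subsets of arrays were tried. Genes named outside the members were the regulators, G1 genes and inhibitors that passed in either step without drug, up to 4 genes of each further list with the largest difference in the step from 300 to 600, and the 10 most similar profiles. Leukocyte, fibroblast and endothelial markers are given as counts without names. Deviations of arrays with the same replicate number had a mean correlation of 0.0045 over 45 pairs, with 1 pair over 0.1. For different numbers it was -0.0022 over 90 pairs, with 3 over 0.1. The labels do not say what a replicate number shares, and this measure cannot decide it. Precision is limited by 3 arrays per group, and the median SD within groups was 0.108 to 0.123 over all features.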

Additional observations from a re-analysis of the deposited data

Results flagged for a closer look

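The results listed here differ between the steps by the test of the difference itself, that is the step from 600 to 900 minus the step from 300 to 600 mosmol/kg (limma, adjusted p under 0.05). Members with a smaller fall in the upper step were Ccnb2 (0.661), Kif20a (0.575), Nuf2 (0.547), Aurkb (0.534), Bub1b (0.516), Kif11 (0.507) and Tpx2 (0.296). Of other mitosis genes, Dlgap5 (0.605) also fell less in the upper step. Pimreg (1.169) fell only in the lower step by the test, and its levels of 2.08 in the 600 culture and 2.26 after the 900 challenge lie under the arrays' lower quartiles. The retinoblastoma gene Rb1 (-0.323) and the chromatin gene Rbbp4 (-0.190) moved the other way. Both fell in the upper step and had differences of 0.06 and -0.01 in the lower one. The D-type cyclin Ccnd2 fell less in the upper step (0.558), and Ccnd3 fell in the lower step and not by the test in the upper one (0.397). Among the inhibitors Cdkn2b (-0.359) fell in the upper step, and Gadd45a (0.359) changed direction, falling in the lower and rising in the upper step. Aqp2 had a larger rise in the upper step (0.772), but its levels of 1.61 in the 300 culture and 2.28 after the 600 challenge lie under the arrays' lower quartiles. Cdh1 fell less in the upper step (0.264), and so did Vldlr (0.673), a gene with a profile like that of the members.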

How the results depend on the processing

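Every difference of a member that passed the test kept its direction under all alternatives run. Of the members' values under those alternatives 4185 stayed on their side of the threshold, 169 lost a call and 38 gained one. The counts of called members that moved by over 1.5 times were the following. In the 900 challenge with cyclosporin A against the 600 culture the count of 22 became 11 when only those groups were fitted, where fewer arrays set the spread, and 14 to 21 when 1 array was left out, 14 being without replicate 3 of the treated group. In the 600 culture against the 300 culture the count of 9 became 4 to 8 when 1 array was left out. Over all features, fitting only the groups compared took the count from 4934 to 2860 in the step to 900, from 3982 to 2479 in the 600 challenge with cyclosporin A, from 5040 to 3059 in the 900 challenge with it and from 4655 to 3071 between the 600 challenge and the 600 culture. It took the drug effects from 116 and 143 features to 0, while a filter on low features gave 178 and 233, an intensity trend 268 and 385, and leaving out 1 array 39 to 67 and 43 to 76. The difference of the drug effects went from 13 features to between 4 and 43. With the replicate number as a block 26 members were called in the step to 600 and 24 in the step to 900. Between the cultures 7 were called, and 7 for the difference of the steps, so the replicate block moved no count of members by over 1.5 times. Of 18 arrays, 7 had their highest mean correlation with the arrays of their own number in other groups, out of 3 replicate numbers. No member was called for cyclosporin A under any alternative run. With 3 arrays per group and no signal over background in the sources used here, Ube2c, Birc5, Kif4a and Bub1b are the members whose low levels limit what their differences show.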
